A study of Mus musculus with 19 samples.

Results

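Livers of wild-type (WT) mice kept on a high-fat diet (HFD) were compared with livers of WT mice kept on a normal diet (ND). The 6 arrays, 3 for each diet, were chosen by sample titles that end in WT_HFD or WT_ND, out of 19 arrays in the series. All 22180 genes with a single symbol entered the comparison. Each array held RNA from whole liver of 1 mouse aged 2 to 3 months after 4 weeks on the diet. The other 13 arrays came from mice coded KO or TG on the same diets, in 3 arrays for each of KO ND, KO HFD and TG ND and 4 for TG HFD. The series is titled after Kcp (Kielin/chordin-like protein), which is secreted and acts on BMP signals. The labels do not spell out the codes WT, KO and TG, and they give no strain, sex, litter, promoter of a transgene or hour of harvest. Replicates were taken as separate animals because the titles number the animals individually, and the style of those numbers differs between the diets, so that diet and cohort cannot be told apart. Values are log2 expression levels per probe set, and a difference is always the mean of WT HFD minus the mean of WT ND.

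The liver takes up dietary fat, stores it as triglyceride in lipid droplets, burns it in mitochondria and peroxisomes, and makes new fatty acids from carbohydrate. Much of this metabolism follows the circadian clock, a loop in which the activators encoded by Arntl (BMAL1) and Clock switch on their own repressors and a set of output genes, so that many liver genes peak at a fixed time of day. A liver taken at another hour, or from an animal that ate at another hour, therefore differs in many of the same genes that a diet can move.

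Among the genes that rose in WT HFD livers were Thrsp of fatty acid synthesis, Apoa4 and Mogat1 of triglyceride assembly, and Abcd2 and Acot3 of peroxisomal fat handling. Among those that fell were 6 of 28 cytochromes P450 and 5 of 22 genes that are more active in male than in female liver. Clock genes were called as well, with higher Per1, Per3, Dbp, Tef and Ciart and lower Arntl and Clock. A further set of genes, led by Ctse, Mme, Asic5 and Rian, set the 3 WT ND livers apart from all 16 other livers of the series. Ctse, Mme and Asic5 had been listed for this pattern from earlier results of the same data. In all, 293 of 22180 genes (1.32%) passed an adjusted p of 0.05 in limma, a linear model with moderated variances. Of these, 167 (0.753%) were higher and 126 (0.568%) lower on HFD, against a median difference of 0.004 over all genes. Among the 9657 genes with a mean level of at least 2, where most members of the lists below lie, 249 passed (2.58%).

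Of the 293 genes, 144 differed by at least 1 and 44 by at least 2 on the log2 scale, and the median size of the difference was 0.99. The arrays of both diets did not overlap for 292 of them, which was so for 15.1% of all genes. A further group of genes lay nearer to the threshold, as 2484 genes had an unadjusted p under 0.05. Without WT HFD replicate 1 the count of 293 fell to 166, without WT ND replicate 2 to 169, without WT HFD replicate 3 to 179 and without WT ND replicate 1 to 195. A fit to only the 6 WT arrays called 139 genes, of which 118 were among the 293. With the clock score of each array as a covariate, described below, 8 genes passed, 7 of them among the 293. Of the 71 called genes that were named by rule, 23 did not pass in the fit to only the WT arrays. Of these 23, Acot3, Adgrf1, Serpina1e, Hao2, Dbp and C8b had kept their calls without each WT array in turn.

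The tissue fits its label as far as markers show, since the mean level of 13 hepatocyte markers lay between 10.53 and 10.64 in the WT ND arrays and between 10.47 and 10.59 in the WT HFD arrays. None of these 13 markers passed the limma test, and 2 had an unadjusted p under 0.05. WT HFD replicate 1 stood slightly apart, with a mean correlation of 0.969 with the other arrays of its group over all probe sets. The other WT HFD arrays stood at 0.973 and 0.974 and each WT ND array at 0.977. WT HFD replicate 2 correlated with the WT ND arrays (0.9736) as closely as with its own group (0.9728), and so did WT HFD replicate 3 (0.9735 and 0.9736). Kcp itself read 2.41, 2.82 and 2.42 in the WT ND arrays and 1.77, 2.51 and 2.42 in the WT HFD arrays, which overlap (-0.32 ± 0.20, SE, adjusted p = 0.607). The KO arrays read Kcp between 1.64 and 2.30, a range that overlaps the WT arrays, and the TG arrays between 5.35 and 5.81. Which part of Kcp is deleted in KO was not given in the sources used here.

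Several clock genes separated the diets in WT liver. Of 9 measured genes that peak towards evening in mouse liver, 5 rose on HFD, as 0.753% of all genes did, and none fell, with a median difference of 0.80. Of 5 genes that peak towards morning, 2 fell, as 0.568% of all genes did, and none rose, with a median of -0.87. Dbp and Tef encode related transcription factors that drive daily output genes, Per1 and Per3 encode clock components of the repressor loop, and Ciart encodes a further repressor of the clock.

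Per3 read 3.08, 2.62 and 3.54 on ND and 4.65, 5.29 and 4.86 on HFD, and every HFD array lay above every ND array (1.85 ± 0.22, SE, adjusted p = 0.000204). Dbp read 6.19, 5.36 and 6.85 on ND and 7.73, 7.97 and 7.79 on HFD (1.70 ± 0.26, adjusted p = 0.00134), and it did not pass with only the WT arrays in the fit (adjusted p = 0.0673). Its ND arrays were spread over 1.49 log2 units while the HFD arrays lay within 0.24. Ciart read 2.23, 1.59 and 2.29 on ND and 4.67, 3.74 and 4.33 on HFD (2.21 ± 0.34, adjusted p = 0.00172). Per1 rose by 1.79 ± 0.38 from arrays at 3.94, 3.93 and 3.05, and lost its call without each WT array in turn except WT ND replicate 1 and WT ND replicate 2 (adjusted p = 0.0574 to 0.121). Tef rose by 0.80 ± 0.17 and lost its call without WT ND replicate 2 or without WT HFD replicate 3 (adjusted p = 0.108 to 0.122). A second, dim probe set of Tef gave -0.14, so the rise of Tef rests on 1 of its 2 probe sets.

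On the morning side, Arntl, the main activator of the loop, read 5.09, 6.33 and 5.16 on ND and 2.68, 2.98 and 3.33 on HFD (-2.53 ± 0.29, SE, adjusted p = 0.000129). Its partner Clock read 8.60, 8.96 and 8.67 on ND and 7.95, 7.75 and 7.93 on HFD (-0.87 ± 0.13, adjusted p = 0.00116). Both lay lower in every HFD array, and the highest ND value of Arntl was in WT ND replicate 2. Npas2, a stand-in for Clock, read 2.46, 4.50 and 1.10 on ND and 0.80, 1.16 and 0.64 on HFD and did not pass (adjusted p = 0.113). Its 3 ND arrays span almost the whole range, and WT ND replicate 3 lay below 1 HFD array. Nr1d1 (-0.52 ± 0.40), Nr1d2 (0.55 ± 0.17), Hlf (0.15 ± 0.15), Bhlhe41 (-0.04 ± 0.38), Nfil3 (-0.72 ± 0.25) and Cry1 (-0.54 ± 0.30) did not pass either.

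A clock score was taken in each array as the mean of the 9 evening-peaking genes minus the mean of the 5 morning-peaking genes. It was -0.39, -1.78 and 0.05 in the WT ND arrays and 1.65, 1.60 and 1.35 in the WT HFD arrays. The diets did not overlap, and the ND arrays were spread far more (SD 0.956, n = 3) than the HFD arrays (SD 0.162, n = 3). The mean difference was 2.24, and the two-sided exact permutation test gave p = 0.1, the smallest value that 3 against 3 arrays allow. Without WT ND replicate 2, the lowest array, the difference was 1.70. In the other genotypes the score was higher on HFD by 0.70 in KO (exact p = 0.1, the smallest possible), where ND already stood at 1.06, and by 2.71 in TG (exact p = 0.0286, the smallest possible), where ND stood at -1.45. In KO the diets did not overlap either, at 0.88 to 1.21 on ND and 1.47 to 1.98 on HFD, and all 6 scores were positive. The hour of harvest is not given, so diet and time of day cannot be told apart.

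**Figure D1:**
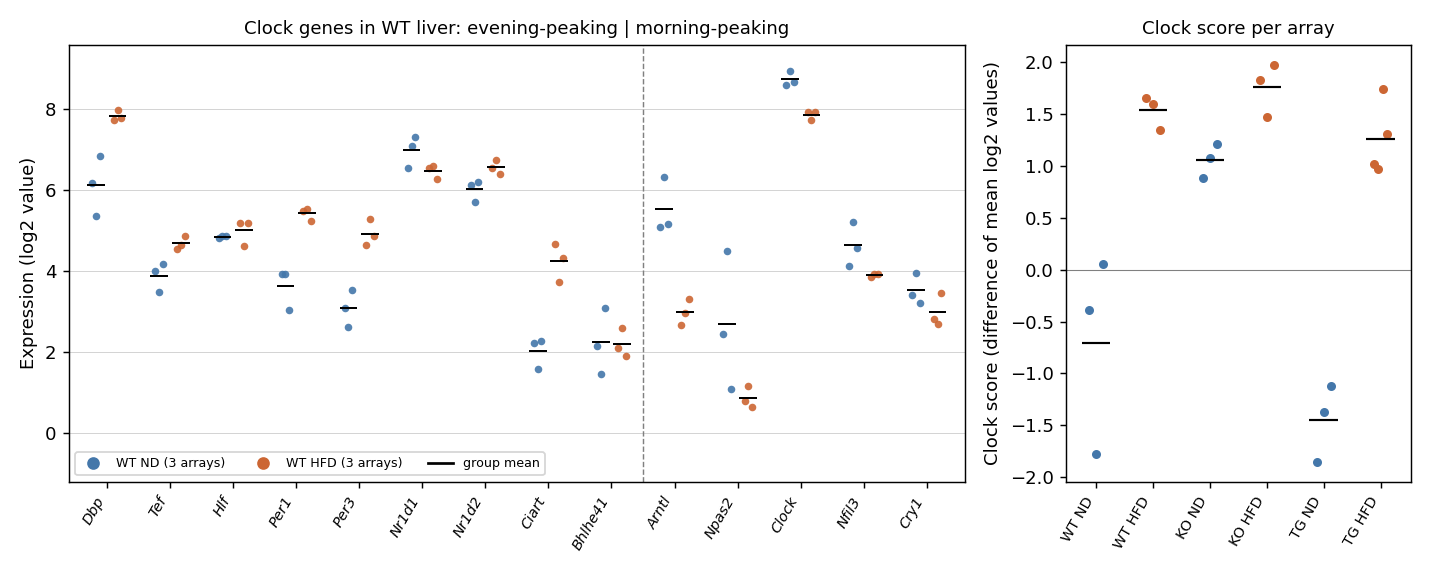
Left, log2 expression of 9 evening-peaking and 5 morning-peaking clock genes in the 3 WT ND (blue) and 3 WT HFD (orange) arrays, with group means as black lines. Right, the clock score of all 19 arrays by group, with means as lines; the WT HFD arrays lie between 1.35 and 1.65, above the WT ND arrays at -1.78 to 0.05.

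Of 21 measured genes known as outputs of the clock in liver, 7 rose, as 0.753% of all genes did, 1 fell and 13 did not pass, with a median of 0.50. Usp2, a ubiquitin-specific protease with strong daily rhythm, read 3.37, 2.57 and 3.64 on ND and 6.14, 6.16 and 6.18 on HFD (2.97 ± 0.26, SE, adjusted p = 6.49e-06). Wee1, a cell cycle kinase under direct clock control, read 1.76, 1.98 and 2.89 on ND and 5.35, 4.76 and 5.70 on HFD (3.06 ± 0.34, adjusted p = 7.24e-05). The lowest HFD array stood above the highest ND array by 2.49 log2 units for Usp2 and by 1.87 for Wee1. Nampt, the rate-limiting enzyme of NAD salvage, rose by 1.40 ± 0.19 (adjusted p = 0.000431). Rgs16, a regulator of G protein signalling, read 1.90, 3.46 and 5.12 on ND and 7.71, 6.06 and 6.42 on HFD (3.23 ± 0.69, adjusted p = 0.0232). Its ND arrays were spread over 3.22 log2 units, and it lost its call without each WT array in turn except WT ND replicate 3 and WT HFD replicate 2 (adjusted p = 0.0562 to 0.139). Alas1, the first enzyme of haem synthesis, rose by 1.98 ± 0.37 (adjusted p = 0.00791) and lost its call without WT HFD replicate 1 (adjusted p = 0.053). Bhlhe40, a clock repressor, rose by 0.87 ± 0.17 (adjusted p = 0.0139) and lost its call without each WT array in turn except WT ND replicate 3 and WT HFD replicate 2 (adjusted p = 0.0542 to 0.0802). Elovl3, an elongase of very long fatty acids with a daily rhythm, was the 1 member that fell (-1.48 ± 0.27, adjusted p = 0.00717).

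BMAL1 and CLOCK bind the E-box CACGTG, and the factors encoded by Dbp, Tef and Hlf bind the D-box TTANGTAA. Both motifs were searched on both strands of the 250 bases before each gene's annotated start, from RefSeq promoters of the build GRCm38.p6. Of 130 genes called higher with a promoter there, 21 (16.2%) held an E-box, against 5 of 95 called lower (5.26%) and 7.83% of all 16990 measured genes with a promoter. A D-box stood in 8 of the 130 (6.15%), in 2 of the 95 (2.11%) and in 2.21% of all. The promoters of Ciart, Per1 and Per3 are shown because these 3 clock genes rose and their motifs differ, with motif matches in capitals. Each is written 5′ to 3′ on the gene's strand and ends at the base before the start. Ciart, on the minus strand at chr3:95882229-95882478, held 3 E-boxes, Per1, on the plus strand at chr11:69098699-69098948, held 1, with no motif before a second annotated start of Per1, and Per3, on the minus strand at chr4:151044666-151044915, held 2 D-boxes and no E-box.
Ciart: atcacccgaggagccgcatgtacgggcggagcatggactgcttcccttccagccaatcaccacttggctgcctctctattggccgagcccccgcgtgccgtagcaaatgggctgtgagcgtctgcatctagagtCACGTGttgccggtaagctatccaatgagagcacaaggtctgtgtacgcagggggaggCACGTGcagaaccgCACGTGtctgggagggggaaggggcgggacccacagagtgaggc
Per1: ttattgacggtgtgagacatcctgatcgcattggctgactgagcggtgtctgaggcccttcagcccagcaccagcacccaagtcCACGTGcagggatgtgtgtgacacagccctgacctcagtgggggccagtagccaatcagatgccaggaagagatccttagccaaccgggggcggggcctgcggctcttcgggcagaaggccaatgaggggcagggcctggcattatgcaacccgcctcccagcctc
Per3: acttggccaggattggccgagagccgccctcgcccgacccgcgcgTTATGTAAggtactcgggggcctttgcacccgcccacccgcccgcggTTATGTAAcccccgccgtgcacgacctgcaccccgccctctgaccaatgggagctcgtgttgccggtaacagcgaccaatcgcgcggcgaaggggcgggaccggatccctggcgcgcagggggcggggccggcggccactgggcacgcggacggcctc
Other genes called higher that held an E-box there included Acot4, Fgf21, Tef and the phosphate carrier gene Slc20a1, and those with a D-box included Sult1a1. The clock genes Cry1 and Bhlhe41, which did not pass, each held 1 E-box. Dbp, Arntl, Clock, Usp2, Rgs16, Nampt, Alas1, Thrsp and Mfsd2a, all called, held neither motif within 250 bases. For Wee1, Cyp7a1, Bhlhe40 and Elovl3 no promoter was available to search. A match is a run of letters and was not tested for binding.

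Most genes that make fatty acids read higher on HFD, though few passed one by one. Of 18 measured genes of fatty acid synthesis, 3 rose, as 0.753% of all genes did, and none fell. Of the 18, 17 had a positive difference and 12 had arrays that did not overlap (15.1% of all genes). The median was 0.85 against 0.004 over all genes. The mean level of the 18 genes lay between 7.64 and 7.93 on ND and between 8.36 and 8.94 on HFD, with no overlap. Thrsp, or Spot 14, which promotes lipogenesis, read 7.13, 7.83 and 7.80 on ND and 10.25, 9.82 and 10.37 on HFD (2.56 ± 0.30, SE, adjusted p = 0.000157). Fads2 and Fads1, the desaturases that make polyunsaturated fatty acids, rose by 1.23 ± 0.26 (adjusted p = 0.0243) and 0.85 ± 0.20 (adjusted p = 0.0373). Fads2 lost its call without each WT array in turn except WT ND replicate 1 and WT HFD replicate 2 (adjusted p = 0.0877 to 0.113), and Fads1 lost its call without each WT array in turn except WT HFD replicate 2 (adjusted p = 0.089 to 0.149). The count of 3 fell to 1 without WT ND replicate 2 or 3 or without WT HFD replicate 1 or 3, and rose to 4 without WT HFD replicate 2.

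Fasn, fatty acid synthase itself, read 7.75, 7.60 and 7.55 on ND and 9.65, 8.76 and 9.79 on HFD. The arrays did not overlap and the difference was 1.77 ± 0.51 (SE), but it did not pass (adjusted p = 0.115). Scd1, the main desaturase of saturated fat, overlapped between the diets (0.20 ± 0.30, adjusted p = 0.884). Srebf1, which encodes the transcription factor SREBP1 of lipogenic genes, read 7.29, 6.78 and 5.90 on ND and 7.53, 7.80 and 7.31 on HFD without passing (adjusted p = 0.205). Of 19 genes of cholesterol synthesis 17 had a positive difference, with a median of 0.60, and none passed in limma, while 6 had an unadjusted p under 0.05.

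Genes that join fatty acids into triglyceride and pack it for storage or export rose in part. Of 16 genes of triglyceride synthesis and lipoprotein assembly, 3 rose, as 0.753% of all genes did, and none fell, with a median of 0.28. Apoa4, an apolipoprotein of triglyceride-rich particles that fat loading of the liver is known to raise, read 8.16, 8.88 and 8.96 on ND and 11.40, 11.15 and 11.48 on HFD (2.67 ± 0.29, SE, adjusted p = 5.61e-05). Mogat1, a monoacylglycerol acyltransferase, read 0.61, 1.19 and 1.39 on ND and 3.64, 2.70 and 3.62 on HFD (2.26 ± 0.35, adjusted p = 0.00178). Both were higher in every HFD array and kept their calls without each WT array in turn. Gpat3, a glycerol-phosphate acyltransferase, rose by 1.32 ± 0.19 (adjusted p = 0.00106), while a second, dim probe set of Gpat3 gave -0.33. With its probe sets averaged the difference of Gpat3 was 0.50 and did not pass.

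Among 21 lipid droplet proteins 1 rose, as 0.753% of all genes did, with a median of 0.08. Cidec, which lets droplets fuse and grow, read 2.48, 2.11 and 2.93 on ND and 5.82, 4.09 and 6.29 on HFD (2.90 ± 0.63, SE, adjusted p = 0.0276). WT HFD replicate 2 was the lowest HFD array by 1.72 log2 units, and Cidec lost its call without each WT array in turn except WT HFD replicate 2 (adjusted p = 0.0538 to 0.136). Its relative Cidea read 0.59, 1.63 and 0.75 on ND and 4.41, 2.13 and 4.15 on HFD and did not pass (2.57 ± 0.84, adjusted p = 0.196). The same array, WT HFD replicate 2, was again the lowest on HFD. Plin2, the coat protein of most hepatic droplets, overlapped between the diets at 8.38, 8.87 and 9.24 and 8.80, 8.27 and 9.13 (-0.10 ± 0.27, adjusted p = 0.961). Pparg, a lipogenic nuclear receptor, did not pass (0.76 ± 0.35, adjusted p = 0.425), nor did the collagen gene Col1a1 (0.69 ± 0.42, adjusted p = 0.606) or the cytokine gene Tnf (0.12 ± 0.25, adjusted p = 0.935).

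Fatty acid uptake was represented by 2 called genes of 16, both higher, as 0.753% of all genes were. Cd36, a fatty acid transporter, read 7.38, 7.80 and 7.88 on ND and 9.11, 8.39 and 9.02 on HFD (1.15 ± 0.26, SE, adjusted p = 0.0327), and it lost its call without each WT array in turn except WT HFD replicate 2 (adjusted p = 0.0594 to 0.162). Vldlr, a receptor for triglyceride-rich lipoproteins, read 1.71, 1.15 and 1.69 on ND and 3.44, 3.84 and 3.31 on HFD (2.01 ± 0.30, adjusted p = 0.00134). Outside the lists, Mfsd2a, a lysophospholipid transporter, read 6.66, 6.17 and 6.26 on ND and 9.79, 9.07 and 9.89 on HFD (3.22 ± 0.44, adjusted p = 0.000605). Aacs, which turns acetoacetate into acetoacetyl-CoA for lipid synthesis, rose by 2.81 ± 0.45 (adjusted p = 0.00243). Gdpd3, a glycerophosphodiester phosphodiesterase, rose from arrays at 1.44, 0.90 and 1.00 to 4.84, 4.65 and 4.28 (3.48 ± 0.49, adjusted p = 0.000717).

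Peroxisomal and microsomal fat handling had 4 called genes of 19, all higher, as 0.753% of all genes were, with a median of 0.36. Abcd2, a transporter of very long fatty acids into peroxisomes, read 2.82, 1.91 and 1.83 on ND and 6.73, 5.41 and 6.70 on HFD (4.09 ± 0.51, SE, adjusted p = 0.000294). Acot3, a peroxisomal acyl-CoA thioesterase, read 2.18, 1.30 and 2.34 on ND and 5.50, 3.43 and 6.04 on HFD (3.05 ± 0.52, adjusted p = 0.00354), without passing in the fit to only the WT arrays (adjusted p = 0.0787). In both, WT HFD replicate 2 was the lowest of the HFD arrays and still above every ND array. Acot4, the neighbour of Acot3 on the chromosome with a closely related sequence, rose by 1.78 ± 0.38 (adjusted p = 0.0253) and lost its call without each WT array in turn except WT ND replicate 3 and WT HFD replicate 2 (adjusted p = 0.0739 to 0.132). Cyp4a12a, a fatty acid hydroxylase, rose by 0.82 ± 0.19 (adjusted p = 0.0399) and lost its call without each WT array in turn except WT ND replicate 1 (adjusted p = 0.0928 to 0.165). Cyp4a14, a classical target of PPAR-alpha, the fatty acid sensor, did not pass (1.32 ± 1.05, adjusted p = 0.724), nor did Ppara, which encodes that sensor (0.52 ± 0.19, adjusted p = 0.28).

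In mitochondria, 2 of 19 genes of fatty acid oxidation and ketone formation rose and none fell, with a median of 0.12. Over all genes 0.753% rose. Cpt1a, the gate for fatty acids into mitochondria, read 8.87, 8.73 and 9.10 on ND and 9.43, 9.48 and 9.67 on HFD (0.63 ± 0.14, SE, adjusted p = 0.0351). Bdh1, which interconverts ketone bodies, rose by 0.62 ± 0.15 (adjusted p = 0.0471). Both differences were small and rested on the full set of arrays, as Cpt1a lost its call without each WT array in turn except WT ND replicate 3 (adjusted p = 0.0634 to 0.164) and Bdh1 lost its call without each WT array in turn except WT HFD replicate 2 (adjusted p = 0.0643 to 0.202). Fgf21, a hormone that the liver secretes in fasting and on fat-rich diets, read 1.05, 1.42 and 1.77 on ND and 3.30, 2.20 and 4.56 on HFD (1.94 ± 0.44, adjusted p = 0.0351). The HFD arrays were spread over 2.36 log2 units with WT HFD replicate 2 lowest, and Fgf21 lost its call without each WT array in turn except WT HFD replicate 2 (adjusted p = 0.0596 to 0.156).

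**Figure D2:**
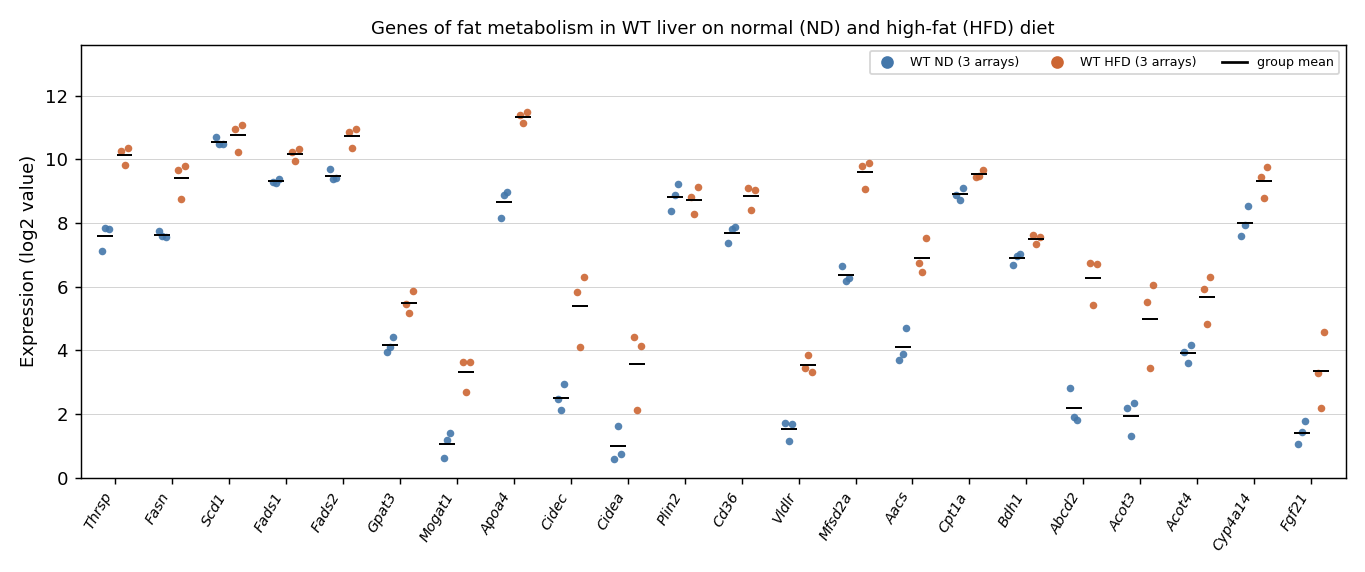
Log2 expression of 22 genes of fat metabolism in the 3 WT ND (blue) and 3 WT HFD (orange) arrays, each point 1 array and each black line a group mean. Thrsp, Apoa4 and Mfsd2a separate the diets by 1.99, 2.19 and 2.42 log2 units, and Plin2 and Scd1 overlap. The middle HFD point of each gene, WT HFD replicate 2, is the lowest HFD point for every gene shown except Vldlr and Cpt1a.

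Of 23 genes of bile acid synthesis and transport, 9 had a positive difference, with a median of -0.27. The 1 called gene of the 23, against 1.32% of all genes, was Cyp7a1, the rate-limiting enzyme of bile acid synthesis. It read 6.88, 6.95 and 6.70 on ND and 7.97, 9.13 and 9.01 on HFD (1.86 ± 0.39, SE, adjusted p = 0.0211). Every HFD array lay above every ND array, but Cyp7a1 lost its call without each WT array in turn except WT HFD replicate 1 (adjusted p = 0.0638 to 0.0961). Cyp7a1 is also a clock output gene and counts in both lists. Among 17 genes of glucose production and glycogen 1 was called, against 1.32% of all genes. This was Gbe1, the glycogen branching enzyme, which rose by 0.82 ± 0.19 (adjusted p = 0.0422). Gbe1 lost its call without each WT array in turn except WT ND replicate 2 and WT HFD replicate 2 (adjusted p = 0.0747 to 0.194). Igfbp2, a carrier of insulin-like growth factors, read 8.16, 8.11 and 8.22 on ND and 6.30, 6.95 and 6.29 on HFD (-1.65 ± 0.27, adjusted p = 0.00243). It was, with Fgf21, 1 of 2 called among 21 genes of insulin and growth factor signalling, against 1.32% of all genes. The means of Igfbp2 were 6.34 on ND and 6.22 on HFD in KO, and 8.63 and 8.61 in TG.

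Among cytochromes P450 that oxidise drugs and other foreign compounds, those that passed were lower on HFD. Of 28 measured, 6 fell, as 0.568% of all genes did, and none rose, 7 had a positive difference and the median was -0.43. Cyp2c55 read 5.87, 6.52 and 6.21 on ND and 3.61, 1.98 and 2.52 on HFD (-3.50 ± 0.34, SE, adjusted p = 1.59e-05). Cyp3a11, a main drug-metabolising enzyme of mouse liver, read 7.90, 8.14 and 8.05 on ND and 6.55, 6.05 and 5.98 on HFD (-1.84 ± 0.24, adjusted p = 0.000409). The gap between the diets was 2.26 log2 units for Cyp2c55 and 1.35 for Cyp3a11, and both kept their calls without each WT array in turn. A second, dim probe set of Cyp2c55 gave 0.64, against the direction of the brighter one.

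Cyp2b10, the usual read-out of the receptor CAR, read 1.42, 5.18 and 4.28 on ND and 0.34, 0.75 and 0.62 on HFD (-3.05 ± 0.63, SE, adjusted p = 0.0183). WT ND replicate 1 stood far below the other ND arrays, and Cyp2b10 lost its call without each WT array in turn except WT ND replicate 1 and WT HFD replicate 2 (adjusted p = 0.0584 to 0.1). Cyp2c54 fell by 1.48 ± 0.36 (adjusted p = 0.0481) and lost its call without each WT array in turn except WT ND replicate 1 and WT HFD replicate 2 (adjusted p = 0.14 to 0.224). Cyp2c29 fell by 0.61 ± 0.14 (adjusted p = 0.0421) and lost its call without each WT array in turn except WT HFD replicate 2 (adjusted p = 0.0789 to 0.18). It did not pass after quantile normalization or median centring, with its probe sets averaged, or with only the WT arrays (adjusted p up to 0.123). Cyp2f2, which marks hepatocytes near the portal vein, fell by 0.56 ± 0.13 (adjusted p = 0.0425) and lost its call without each of the 6 WT arrays in turn (adjusted p = 0.0672 to 0.174). The count of 6 fell to 2 without WT ND replicate 2 or 3 or without WT HFD replicate 1 or 3, and to 3 when each array was centred on its median. Members of the Cyp2c family are close in sequence, and their probes may cross-hybridise.

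Conjugating enzymes and redox genes had 5 that fell and 1 that rose among 32, with a median of -0.07. Over all genes 0.568% fell and 0.753% rose. Gstp1 and Gstp2, neighbouring genes of pi-class glutathione transferases with near-identical sequence, fell by 1.43 ± 0.30 (adjusted p = 0.0211) and 1.40 ± 0.24 (adjusted p = 0.0044). Gstp2 read 7.63, 7.01 and 7.47 on ND and 5.50, 6.25 and 6.16 on HFD, with no overlap. Gstp1 lost its call without each WT array in turn except WT HFD replicate 2 (adjusted p = 0.0513 to 0.132). Ugt2b1, a glucuronosyltransferase, fell by 0.61 ± 0.13 (adjusted p = 0.0267) and lost its call without each WT array in turn except WT HFD replicate 1 (adjusted p = 0.0688 to 0.107), and its neighbour Ugt2b35 fell by 0.61 ± 0.14 (adjusted p = 0.0418) and lost its call without each of the 6 WT arrays in turn (adjusted p = 0.0571 to 0.153). Gsta4 fell by 0.56 ± 0.12 (adjusted p = 0.0287) and lost its call without each WT array in turn except WT ND replicate 3 and WT HFD replicate 2 (adjusted p = 0.0727 to 0.138). The rise was that of Sult1a1, a phenol sulfotransferase, which read 7.87, 7.79 and 7.68 on ND and 9.07, 9.17 and 9.23 on HFD (1.38 ± 0.23, SE, adjusted p = 0.00346). Without single WT arrays the 5 falls became 1 to 3, with 1 left without WT ND replicate 1 or 2 or WT HFD replicate 3.

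Sex bias of gene expression in mouse liver is set by the temporal pattern of growth hormone release. Of 22 measured male-biased genes, 5 fell and 1 rose, with a median of -0.56. Of 23 female-biased genes 5 rose and 1 fell, with a median of 0.49. Over all genes 0.568% fell and 0.753% rose. Selenbp2, a selenium-binding protein gene and the largest fall of all named genes, read 10.28, 10.67 and 10.91 on ND and 6.88, 5.75 and 4.87 on HFD (-4.78 ± 0.76, SE, adjusted p = 0.00221). Hsd3b5, a male-specific steroid dehydrogenase, read 7.44, 7.37 and 6.77 on ND and 4.59, 4.89 and 2.78 on HFD (-3.11 ± 0.45, adjusted p = 0.0009). Serpina1e, an alpha-1 antitrypsin isoform, read 10.79, 10.38 and 10.48 on ND and 7.39, 9.66 and 8.01 on HFD (-2.20 ± 0.37, adjusted p = 0.00315), and did not pass with only the WT arrays in the fit (adjusted p = 0.117). All 3 were lower in every HFD array, with a wider spread on HFD than on ND. The means of Serpina1e were 6.19 on ND and 6.07 on HFD in KO, and 10.60 and 10.52 in TG. Elovl3 and Gstp1, given above, were the other two male-biased genes that fell, and Cyp4a12a was the 1 that rose.

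On the female-biased side, Slc22a27, an organic anion transporter gene, read 0.35, 0.71 and 0.91 on ND and 3.45, 3.29 and 5.35 on HFD (3.37 ± 0.45, SE, adjusted p = 0.000424). Cyp17a1, a steroid hydroxylase, read 6.28, 4.10 and 3.45 on ND and 7.88, 7.25 and 8.20 on HFD (3.16 ± 0.69, adjusted p = 0.0276), and it lost its call without each WT array in turn except WT ND replicate 1 and WT HFD replicate 2 (adjusted p = 0.107 to 0.134). Hao2, a peroxisomal hydroxyacid oxidase, rose by 1.97 ± 0.32 (adjusted p = 0.00268), without passing with only the WT arrays (adjusted p = 0.105). Abcd2 and Acot3 also belong to this list, so that 2 of its 5 rises are genes of peroxisomal fat handling, and Cyp2b10 was its 1 fall. The sex of the animals is not given in the labels. Whether the groups held the same sexes was not tested here.

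**Figure D3:**
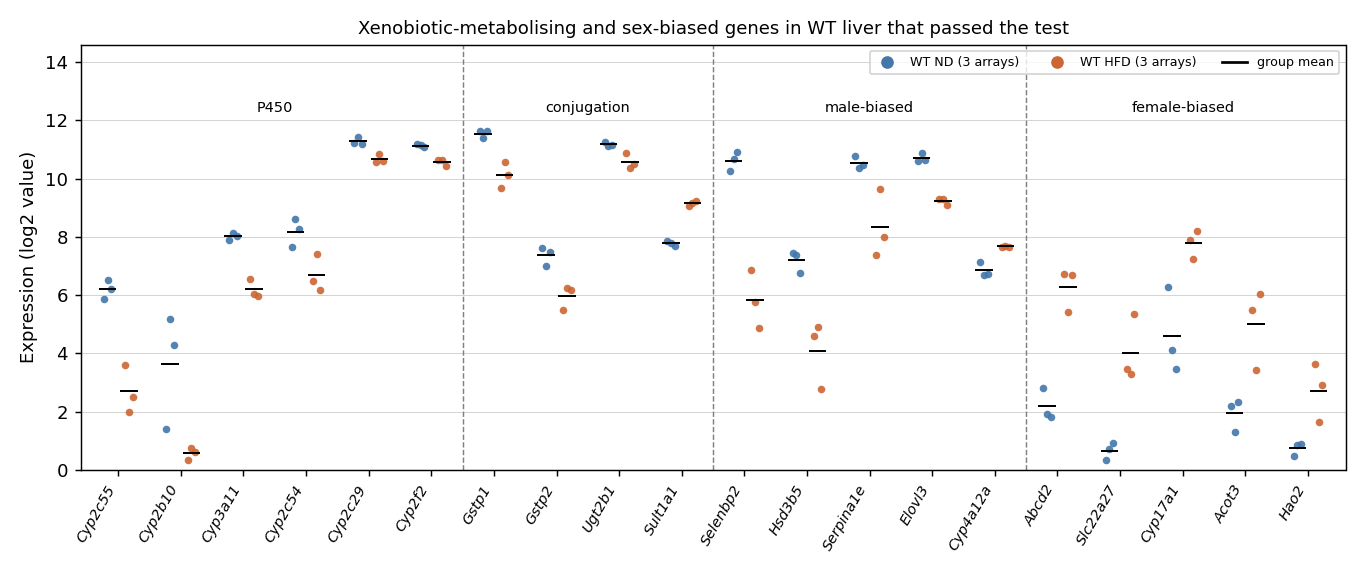
Log2 expression of 20 genes past the test in the 3 WT ND (blue) and 3 WT HFD (orange) arrays, grouped by dashed lines into cytochromes P450, conjugating enzymes, male-biased and female-biased genes, with group means as black lines. The P450 genes are lower on HFD, and among the sex-biased genes Selenbp2 and Hsd3b5 fall while Slc22a27 rises from below 1 to between 3.29 and 5.35.

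Some immune and signalling genes passed. Ccl9, a chemokine, was the 1 called of 26 inflammatory genes, while 1.32% of all genes passed. It read 8.87, 8.84 and 8.76 on ND and 7.40, 6.71 and 6.58 on HFD (-1.92 ± 0.30, SE, adjusted p = 0.00164). Its means were 6.89 on ND and 6.88 on HFD in KO, and 8.27 and 8.12 in TG. C8b, a subunit of the complement attack complex, fell by 1.31 ± 0.23 (adjusted p = 0.00517), without passing with only the WT arrays (adjusted p = 0.105). C2, an early complement protease, fell by 0.72 ± 0.17 (adjusted p = 0.0445) and lost its call without each WT array in turn except WT HFD replicate 2 (adjusted p = 0.102 to 0.216). These were 2 of 24 complement genes, while 0.568% of all genes fell. Among 35 genes of BMP and TGF-beta signalling, 1 rose and 1 fell, as 0.753% and 0.568% of all genes did. The receptor gene Tgfbr2 rose from 3.08, 3.21 and 3.35 to 4.23, 4.23 and 4.84 (1.22 ± 0.17, adjusted p = 0.000596). Id3, a target gene of BMP signals, fell by 0.88 ± 0.18 (adjusted p = 0.021) and lost its call without each WT array in turn except WT ND replicate 3 (adjusted p = 0.0504 to 0.0947).

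None passed in limma among 31 extracellular matrix genes (4 at an unadjusted p under 0.05), 28 interferon genes (2), 15 genes of antigen presentation (0), 25 acute-phase genes (4), 14 heat-shock genes (2) or 28 cell cycle genes (6). Stress response genes gave 1 call of 26, which was Fgf21, against 1.32% of all genes. Of 18 protease inhibitors, 2 fell and 1 rose, against 0.568% and 0.753% of all genes. Mug2 and Serpina1e fell. Serpina6, the carrier of corticosteroids in blood, rose from 9.56, 9.39 and 9.51 to 10.37, 10.39 and 10.49 (0.93 ± 0.13, SE, adjusted p = 0.000717). Mug2, a murinoglobulin that traps proteases, read 9.68, 9.57 and 9.22 on ND and 6.10, 6.71 and 6.29 on HFD (-3.12 ± 0.22, adjusted p = 1.5e-07). The adjacent symbols Gm10319 and Mug-ps1, singled out after their values were seen, fell by 1.44 ± 0.17 and 1.47 ± 0.18, and probes of this repeated family may share signal.

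Marker genes of other liver cells gave few calls, and in whole tissue fewer cells of a type and less RNA per cell cannot be told apart. Of 24 macrophage markers 1 passed, against 1.32% of all genes. This was Marco, a scavenger receptor of Kupffer cells, at 3.84, 3.65 and 3.32 on ND and 1.26, 2.16 and 1.95 on HFD (-1.81 ± 0.39, SE, adjusted p = 0.025). Marco lost its call without each WT array in turn except WT ND replicate 3 and WT HFD replicate 2 (adjusted p = 0.0604 to 0.146). Its fall ran opposite to most of the list, as 18 of the 24 had a positive difference, with a median of 0.12. The mean level of the 24 markers lay between 4.15 and 4.28 on ND and between 4.17 and 4.36 on HFD, which overlap. No marker passed among 13 endothelial, 16 stellate cell, 14 T and NK cell, 9 B cell, 12 neutrophil, 6 cholangiocyte and 7 adipose markers, of which 1, 0, 0, 1, 0, 1 and 0 had an unadjusted p under 0.05. The 2 measured erythroid markers did not pass, but both had an unadjusted p under 0.05 and their mean level lay at 0.48 to 0.66 on ND and 1.12 to 1.42 on HFD. Among zonal hepatocyte markers, Cdh1, the E-cadherin gene of periportal cells, fell from 7.04, 6.04 and 6.06 to 4.19, 4.83 and 4.40 (-1.91 ± 0.33, adjusted p = 0.00447). With Cyp2f2, 2 of 10 periportal markers fell in all, as 0.568% of all genes did. The means of Cdh1 were 4.30 on ND and 4.01 on HFD in KO, and 6.26 and 6.49 in TG. Of 12 pericentral markers 1 rose, Lect2, by 1.02 ± 0.24 (adjusted p = 0.0379), while 0.753% of all genes rose. Lect2 lost its call without each of the 6 WT arrays in turn (adjusted p = 0.0527 to 0.157).

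Genes outside these pathways differed by several log2 units. Ctse, an intracellular aspartic protease, read 1.44, 2.04 and 2.01 in the WT ND arrays and 8.56, 7.69 and 8.77 in the WT HFD arrays (6.51 ± 0.33, SE, adjusted p = 3.41e-09), the largest difference of all genes. Its WT ND mean was a dim 1.83, so the size of its fold is uncertain. Mme, the membrane peptidase neprilysin, read 3.38, 2.71 and 2.12 on ND and 7.78, 7.06 and 7.35 on HFD (4.66 ± 0.38, adjusted p = 1.97e-06). Asic5, a bile acid-sensitive sodium channel gene, read 7.47, 7.84 and 7.80 on ND and 4.61, 4.38 and 4.18 on HFD (-3.32 ± 0.19, adjusted p = 1.26e-08). In each gene the arrays of a diet lay close together and far from the other diet, and no left-out array took away the call.

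For Ctse, Mme and Asic5 the level that stood out was that of WT ND. They and Clec2h were on a list of 6 WT ND-specific genes drawn up from earlier results of these same data. Of those 6, 2 were called higher and 3 lower, against 0.753% and 0.568% of all genes. The list was picked for this pattern, so these counts test nothing. Ctse was at a mean of 6.23 in KO ND, 6.94 in TG ND, 7.47 in KO HFD and 6.94 in TG HFD, all far above the 1.83 of WT ND. Mme was between 6.36 and 7.69 in the 5 other groups and 2.73 in WT ND. Asic5 was between 3.85 and 4.75 in the 5 other groups and 7.70 in WT ND. Over all genes, the 3 WT ND arrays lay beyond all 16 other arrays for 236 genes (1.06%), and for 74 of the 293 called genes (25.3%), 37 of them higher and 37 lower on HFD. The 3 WT HFD arrays lay beyond all 16 others for 142 genes (0.64%) and for 32 of the 293 (10.9%). The call uses the same WT ND arrays, so these shares describe the called genes and test nothing.

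More genes followed this pattern. Rian, a maternally expressed noncoding RNA of an imprinted cluster, read 3.23, 2.32 and 2.90 in WT ND and 0.34, 0.78 and 0.66 in WT HFD (-2.23 ± 0.20, SE, adjusted p = 6.84e-06), and its mean was between 0.48 and 0.95 in the 5 other groups. Rps3a1, a ribosomal protein gene, read 7.76, 7.27 and 7.51 in WT ND and 4.90, 5.64 and 5.76 in WT HFD (-2.08 ± 0.22, adjusted p = 5.31e-05), and the other groups lay between 5.43 and 5.81. Selenbp2, at 10.62 in WT ND, lay between 5.83 and 8.66 elsewhere. The ribosomal gene Rpl3, singled out after its values were seen, had means of 5.21 in WT ND and 7.04 in WT HFD, and 7.67 and 8.30 in KO and TG on ND. Sugct, which makes glutaryl-CoA, fell from 6.67, 6.63 and 6.72 to 4.14, 4.67 and 4.67 (-2.18 ± 0.24, adjusted p = 7.24e-05), and here TG stood with WT ND at 6.43 on ND and 6.04 on HFD.

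Other named genes outside the pathway lists fell. Clec2h, a C-type lectin gene, read 7.20, 6.24 and 6.76 on ND and 3.80, 3.33 and 2.01 on HFD (-3.69 ± 0.65, SE, adjusted p = 0.00467). Adgrf1, an adhesion G protein-coupled receptor, fell by 2.73 ± 0.41 (adjusted p = 0.00132), without passing with only the WT arrays (adjusted p = 0.0555). Adam11, a catalytically inactive ADAM protein, fell by 2.28 ± 0.30 (adjusted p = 0.000388). Tiam2, an exchange factor for the GTPase Rac, fell by 2.24 ± 0.45 (adjusted p = 0.0149) and lost its call without each WT array in turn except WT ND replicate 2 and WT HFD replicate 1 (adjusted p = 0.0575 to 0.0805). Clec2h differed widely among the groups that did not enter this comparison, from 1.68 in TG ND to 5.98 in KO HFD.

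**Figure D4:**
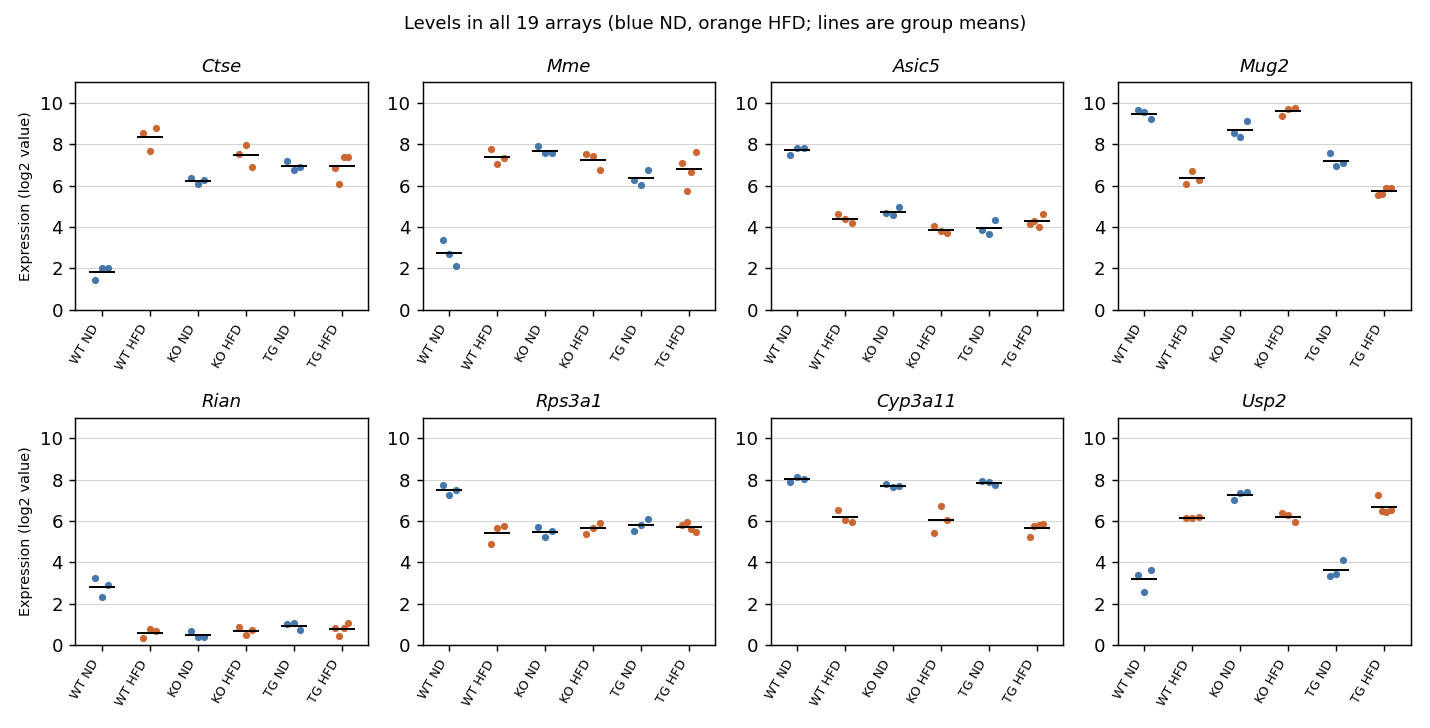
Log2 expression of 8 genes in all 19 arrays by genotype and diet, blue for ND and orange for HFD, with group means as black lines. WT ND stands apart from all other groups for Ctse, Mme, Asic5, Rian and Rps3a1; Cyp3a11 is lower on HFD in all 3 genotypes, Usp2 is higher on HFD in WT and TG, and Mug2 is lower on HFD in WT and TG.

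The diet differences of KO and TG livers come from other arrays and show which WT differences recurred. In KO 178 genes (0.803%) passed and in TG 201 (0.906%). With KO the 293 WT genes shared 17 calls in the same direction, which is 5.8% of the WT calls and 9.55% of the KO calls, and 3 in the opposite one. With TG they shared 58 in the same direction, 19.8% of the WT calls and 28.9% of the TG calls, and none in the opposite one. Of the 293, 168 had the same sign in KO and 211 in TG, and 221 were called in neither.

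The 4 genes called in the same direction in all 3 genotypes were Cyp2c29, Cyp2c55, Cyp3a11 and Ces2a, a carboxylesterase gene, and all 4 encode enzymes of xenobiotic metabolism. Cyp3a11 fell by 1.84 ± 0.24 in WT, by 1.66 in KO (adjusted p = 0.00408) and by 2.20 in TG (adjusted p = 3.04e-05), with all HFD group means between 5.66 and 6.19 and all ND means between 7.71 and 8.03. Cyp2c55 fell by 3.50 ± 0.34 in WT, by 2.59 in KO (adjusted p = 0.00326) and by 2.31 in TG (adjusted p = 0.000777). Ces2a had differences of -1.45 ± 0.21 in WT, -1.26 ± 0.21 in KO and -1.31 ± 0.20 in TG (SE). The P450 list had 4 members that fell and 1 that rose in KO, and 5 that fell in TG. Over all genes 0.803% were called in KO and 0.906% in TG. Cyp2b10 fell by 4.66 in KO (adjusted p = 0.00326), and in TG its difference was -1.29 ± 0.59 (adjusted p = 0.462).

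Clock genes were among the genes shared by WT and TG. In TG, 7 of the 9 evening-peaking genes rose and 4 of the 5 morning-peaking genes fell, and 9 of 21 output genes rose. Over all genes 0.906% were called in TG. In KO, where the clock score differed least, no gene of the evening or morning list passed in limma, and 3 and 3 had an unadjusted p under 0.05. Wee1 rose by 3.09 ± 0.32 in TG (adjusted p = 3.04e-05) and differed by 0.06 ± 0.34 in KO (adjusted p = 0.979), where the ND mean was 5.43. Usp2 rose by 3.06 ± 0.25 in TG (adjusted p = 2.04e-06), and in KO the difference was -1.04 ± 0.26 (adjusted p = 0.0785). Thrsp followed the same order, with 2.26 ± 0.28 in TG (adjusted p = 0.000328) and -0.84 ± 0.30 in KO (adjusted p = 0.264), and its means were 7.58 in WT ND, 7.77 in TG ND and 10.62 in KO ND. Mfsd2a and Apoa4 also rose in TG, by 2.86 ± 0.41 (adjusted p = 0.00131) and 1.95 ± 0.27 (adjusted p = 0.00078).

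The fat storage genes Cidec, Mogat1 and Gpat3, which rose in WT, did not pass in TG or KO. Cidec differed by 0.70 ± 0.59 in TG (adjusted p = 0.777) and -1.54 ± 0.63 in KO (adjusted p = 0.344). Mogat1 differed by 0.04 ± 0.33 in TG (adjusted p = 0.982) and -0.43 ± 0.35 in KO (adjusted p = 0.733). Gpat3 differed by 0.12 ± 0.18 in TG (adjusted p = 0.89) and -0.27 ± 0.19 in KO (adjusted p = 0.675). For KO the test of the difference between genotypes passed for Cidec (KO minus WT -4.44, adjusted p = 0.0233), Mogat1 (-2.69, adjusted p = 0.0138) and Gpat3 (-1.60, adjusted p = 0.00972). For TG it passed for none of these 3 (adjusted p = 0.534, 0.0772 and 0.0859). The ND levels of Cidec were 2.51 in WT, 6.01 in KO and 1.93 in TG, so KO already stood near the WT HFD level of 5.40.

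Over all genes, the diet difference in KO differed from that in WT for 183 genes (0.825%) and that in TG for 49 (0.221%). Of the 293 WT genes 92 passed the test against KO, 41 that against TG and 22 both, shares that the choice of genes on the same WT arrays raises. Ctse gave -5.27 for KO minus WT (adjusted p = 1.66e-05) and -6.51 for TG minus WT (adjusted p = 4.93e-07). Asic5 gave 2.42 (adjusted p = 0.000139) and 3.64 (adjusted p = 4.93e-07). Nampt rose in WT and fell in KO (-0.87 ± 0.19, adjusted p = 0.0366), and Cldn1, a tight junction gene, fell in WT (-0.82 ± 0.15, adjusted p = 0.00914) and rose in KO (1.49 ± 0.15, adjusted p = 0.000397). In WT, Cldn1 lost its call without WT ND replicate 1 or without WT HFD replicate 1 or without WT HFD replicate 3 (adjusted p = 0.0548 to 0.0612). Abca3, a lipid transporter gene, rose in WT from 5.66, 5.75 and 6.01 to 7.07, 7.45 and 7.32 (1.47 ± 0.16, adjusted p = 6.02e-05) and its difference was smaller in both KO (-1.20, adjusted p = 0.0155) and TG (-1.70, adjusted p = 0.00167).

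**Figure D5:**
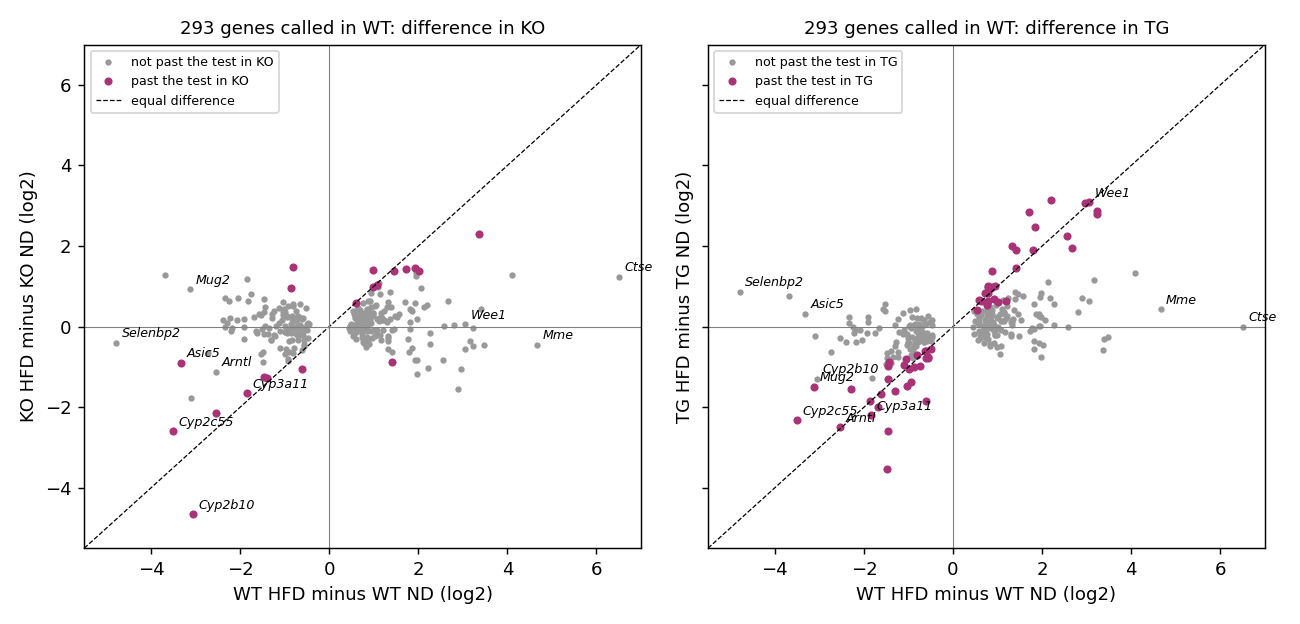
Diet differences (HFD minus ND, log2) of the 293 genes called in WT liver, plotted against the differences in KO liver (left) and TG liver (right), with genes past the test in that genotype in purple and the line of equal differences dashed. The 17 genes shared with KO and the 58 shared with TG lie in the lower left and upper right fields, Mme lies at -0.45 in KO and 0.44 in TG, Ctse lies at 1.24 in KO and 0.0013 in TG, and 3 purple genes lie on the opposite side in KO.

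Because clock score and diet moved together, the model was also fitted with the clock score of each array as a covariate. This fit compares diets at an equal score only through a slope shared by all 6 groups. The WT ND scores (-1.78 to 0.05) and WT HFD scores (1.35 to 1.65) did not overlap, so the sizes below extrapolate along that slope. The part of the standard errors that the design sets grew 1.94 times, as score and diet moved together. The standard errors themselves went from 0.33 to 0.66 for Ctse and from 0.26 to 0.46 for Usp2, and narrowed to 0.25 for Dbp. With the covariate 8 genes passed, of which 7 were among the 293, and all 293 kept their direction. Their median size was 1.00 with the covariate and 0.99 without, and 205 of the 293 had an unadjusted p under 0.05, against 1237 of all genes. Ctse (6.67), Mme (4.72), Asic5 (-3.33), Mug2 (-2.95) and Rian (-2.84) kept their calls.

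The score is built from the clock genes, and in this fit all 7 called clock genes had smaller differences. Of all 14 clock genes, 10 had smaller and 4 larger differences, and 4 changed sign without having been called. Dbp went from 1.70 to 0.14, Clock from -0.87 to -0.70 and Arntl from -2.53 to -1.003. Of the 21 output genes 8 had smaller and 13 larger differences, and of the 8 called ones 6 had smaller and 2 larger differences. Usp2 went from 2.97 to 2.04, Wee1 from 3.06 to 2.49 and Rgs16 from 3.23 to 1.98, while Nampt went from 1.40 to 1.86 and Cyp7a1 from 1.86 to 2.30. Genes of fat metabolism moved in both directions, and none of those given here passed. Thrsp went from 2.56 to 2.96 (adjusted p = 0.125), Apoa4 from 2.67 to 2.96 (adjusted p = 0.113), Mogat1 from 2.26 to 2.90 (adjusted p = 0.288) and Cidec from 2.90 to 3.36 (adjusted p = 0.764). Cd36 went from 1.15 to 1.41 and Gdpd3 from 3.48 to 4.03. Differences became smaller for Cpt1a (0.63 to 0.18), Fads2 (1.23 to 0.77), Acot3 (3.05 to 1.94) and Acot4 (1.78 to 0.91). They also became smaller for Vldlr (2.01 to 1.37), Abcd2 (4.09 to 3.30), Mfsd2a (3.22 to 2.69), Aacs (2.81 to 2.30) and Gpat3 (1.32 to 1.12). Cyp2c55 went from -3.50 to -3.34 (adjusted p = 0.125) and Cyp3a11 from -1.84 to -1.65 (adjusted p = 0.572). Cyp2b10 went from -3.05 to -1.37 and Cyp2c29 from -0.61 to -0.41, while Cyp2f2 went from -0.56 to -0.74 and Cyp2c54 reached -1.69. How much of each difference goes with diet and how much with clock state was not tested beyond this fit, and without the hour of harvest they cannot be told apart.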

How the data were processed

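Liver RNA of 19 mice was measured on Affymetrix arrays, and the comparison of diets in WT used 3 arrays per diet. The authors deposited 1 table of log2 values per probe set. Affy, RMA and limma are listed, without role or order, in the submitters' processing notes, and versions are not given in the sources used here. That the log base is 2 was inferred from the range of the values. No scanner files were used here, so no other background correction could be tried.

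Of 41345 probe sets, 23521 carried a single gene symbol, and the probe set with the highest mean stood for each of 22180 genes. Dim genes were kept. All 6 groups entered 1 limma fit (limma 3.58.1, R 4.3.3; 13 residual and 4.76 prior degrees of freedom), with diet contrasts per genotype and their differences between genotypes, and Benjamini-Hochberg adjustment over all 22180 genes. The steps were tested on simulated data. Arrays have no read depth, and their number limits the precision. The p-values measure only the spread between these samples. Promoter sequences came from RefSeq (GRCm38.p6).

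Genes named were the 15 largest rises and 15 largest falls without overlap among annotated genes, up to 4 called members of smallest p per list, all clock genes, a fixed set of diet genes, and 5 genes per test between genotypes. Cyp2c54, Alas1, Bhlhe40, Ugt2b35, Gsta4, Ces2a and Slc20a1 were added after their values were seen, to complete counts. Members and lists were chosen with earlier results of these data known. Alternatives left out dim genes, arrays or other genotypes, or changed the normalization, probe set rule, variance prior, array weights or clock term.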

Additional observations from a re-analysis of the deposited data

Results flagged for a closer look

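These genes were singled out because the test of the difference itself, limma's contrast between the diet difference of another genotype and that of WT, passed. Values are log2 diet differences (HFD minus ND) in KO or TG minus the same in WT, and the same 6 WT arrays enter every one of them. The selected genes include those named for large WT differences, which raises how many pass.

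For KO, with adjusted p from 1.66e-05 to 0.0499, the value was negative for genes of fat storage and handling. Cidec gave -4.44, Mogat1 -2.69, Gpat3 -1.60, Apoa4 -2.04, Mfsd2a -3.71, Thrsp -3.40, Aacs -2.76, Gdpd3 -3.94, Acot3 -3.61, Cyp4a12a -1.33 and Abca3 -1.20. Clock and output genes were also negative, with Usp2 at -4.01, Ciart at -3.24, Wee1 at -3.00, Per1 at -2.42, Per3 at -1.45, Nampt at -2.28 and Cyp7a1 at -2.39. So were the peptidase genes Ctse (-5.27) and Mme (-5.11) and the receptor gene Tgfbr2 (-1.07).

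The value for KO was positive for genes that fell in WT, with adjusted p from 2.51e-06 to 0.0423. Mug2 gave 4.05, Asic5 2.42, Rian 2.44, Rps3a1 2.24 and Sugct 2.16. Clec2h gave 4.96, Adam11 2.36, Tiam2 2.87 and Cldn1 2.31. The immune genes Marco and Ccl9 gave 2.46 and 1.92.

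For TG, with adjusted p from 4.93e-07 to 0.0486, the value was negative for Ctse (-6.51), Mme (-4.22), Slc22a27 (-3.94), Gdpd3 (-3.74), Vldlr (-2.47), Elovl3 (-2.06), Abca3 (-1.70), Cyp4a12a (-1.30) and Cyp2c29 (-1.24). It was positive for Selenbp2 (5.65), Clec2h (4.46), Asic5 (3.64), Rian (2.07), Rps3a1 (1.99), Sugct (1.79) and Mug2 (1.63), with adjusted p from 4.93e-07 to 0.0440. With the clock score as covariate, 22 genes passed for KO and 29 for TG over all genes.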

How the results depend on the processing

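The 293 calls of the WT diet comparison became 139 with only the WT arrays in the fit (118 of them among the 293), 8 with the clock score as covariate (7 among the 293), and 166 to 295 without single WT arrays. Other settings gave 270 to 350. The 183 genes whose diet difference differed between KO and WT became 22 with the clock covariate, 294 when only genes with a mean log2 of at least 2 were tested, and 88 to 189 without single arrays, against 172 to 222 under the other settings. The 49 for TG against WT became 29 with the clock covariate and 22 to 67 without single arrays, against 45 to 55 otherwise. The covariate widens the part of the standard errors that the design sets, the WT-only fit rests on fewer samples, and the filter on dim genes tests 9657 genes. The cause of the other changes was not tested.

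No called gene among those named by the rule changed direction under the alternatives tried. Uncalled genes that did were Nr1d2 (-0.094), Npas2 (1.20), Nfil3 (0.35), Cry1 (0.97), Scd1 (-0.075), Cyp4a14 (-1.02) and Kcp (0.27), all with that covariate. Bhlhe41 gave 0.037 after quantile normalization and -0.43 to 0.39 without single arrays, and Plin2 gave -0.32 to 0.14. The difference in clock score was 2.24 and stayed positive, from 1.70 to 2.62 without single arrays, at 0.94 from evening genes alone and at 1.30 from morning genes alone. The WT-only fit could not give the tests between genotypes. Quantile normalization and median centring moved the share of higher calls from 57 to 60.7 and 61.1 percent. No paired analysis was possible because the replicate numbers only name the arrays in accession order and pair no animals across diets. The 3 arrays per diet and unknown harvest hour and sex limit every result here.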

Other observations

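In the RefSeq annotation of GRCm38.p6, 8 measured small RNA genes lie within the span of Rian, and 3 of them fell on HFD, as Rian did. These genes were singled out after their values were seen. The small nucleolar RNA gene AF357425 read 4.27, 4.06 and 3.70 on ND and 1.50, 1.75 and 1.78 on HFD (-2.33 ± 0.30, SE, adjusted p = 0.000329 in limma), with means between 1.43 and 1.76 in KO and TG. DQ267102, of the same class, read 3.80, 2.31 and 3.41 on ND and 0.88, 0.61 and 0.84 on HFD (-2.40 ± 0.31, adjusted p = 0.000409), and AF357425 and DQ267102 kept their calls without each WT array in turn. DQ267102 also kept its call with the clock score as covariate (adjusted p = 0.00127), while AF357425 did not (0.388). AF357355 fell by 2.34 ± 0.54 (adjusted p = 0.0398) and lost its call without each WT array in turn except WT HFD replicate 2 (adjusted p = 0.0877 to 0.161). As for Rian, the level that stood apart was that of WT ND. The other 5 genes inside Rian, DQ267101, Mir1188, Mir341, AF357426 and Mir370, did not pass in limma, with differences from -1.37 to -0.11.

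A noncoding RNA showed the same pattern in the other direction. The transcript 2610507I01Rik read 1.20, 2.11 and 1.17 in WT ND and 4.94, 4.71 and 5.03 in WT HFD (3.40 ± 0.21, SE, adjusted p = 2.23e-08 in limma), with means between 5.32 and 5.78 in KO and TG. It kept its call without each WT array in turn and with the clock score as covariate (adjusted p = 0.000138). In a separate limma fit to all 41345 probe sets, with p-values adjusted over all of them, 250 passed (0.605%). Of the 17824 without a single symbol 74 passed (0.415%), 27 of them higher and 47 lower on HFD.

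Genes next to each other on a chromosome did not always move together. Of the 293 called genes 28 stood next to another called gene (9.56%), against 2.62% of all placed genes, and related neighbours can share probe signal. Fads3, beside Fads2 and Fads1, read 3.62, 3.44 and 3.60 on ND and 2.88, 2.93 and 2.89 on HFD (-0.65 ± 0.16, SE, adjusted p = 0.0451 in limma) and lost its call without each of the 6 WT arrays in turn (adjusted p = 0.0851 to 0.151), while both of its neighbours rose.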
